A study of Mus musculus with 26 samples.

Results

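The siglec receptors of the mouse and Cmah, the enzyme that makes one of their ligands, were followed in transformed myeloid cells that had or had lost the histone demethylase LSD1. The 8 genes were named by symbol: Siglec1, Cd33, Siglece, Siglecf, Siglecg, Siglech, Cd22 and Cmah, out of 48795 genes in the count table. Siglec1 was chosen by its CPM levels over the 8 groups, near 0 in control cells and high in knockout cells, so its values are described without a test. Of the 8 genes, 7 passed the filter on low counts among 14663 genes tested, Siglech did not, and tests are given for the 6 that remain beside Siglec1.

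Siglecs are cell-surface lectins of the immunoglobulin superfamily that bind sialic acids, the acidic sugars that cap most glycans of vertebrate cells. Most of them carry a cytoplasmic inhibitory motif that recruits the phosphatase SHP-1, encoded by Ptpn6, and they dampen activating signals when they meet sialic acid on the same or on a neighbouring cell. A few pair instead with the adaptor DAP12, encoded by Tyrobp, which signals through the kinase Syk. Siglec1 (sialoadhesin, CD169) has no such motif and works as an adhesion receptor of macrophages. In haematopoiesis the genes mark separate lineages, and CD33 is a surface marker of human acute myeloid leukaemia.

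The RNA came from myeloid progenitor cells with a C57BL/6 background, transformed either by Hoxa9 and Meis1 (called H9M) or by MN1. Each model was sequenced as control (CTL) and as LSD1 knockout (KO), without and with 1 µM all-trans retinoic acid (ATRA), a differentiating vitamin A derivative, which gives 8 groups of 3 libraries. All cells were kept in DMEM with 15% FCS, 10 ng/ml mIL3, 10 ng/ml hIL6 and 100 ng/ml mSCF. The knockout libraries carry a label of 4-hydroxy-tamoxifen at 0.1 µM for 72 hours, and the sources do not say whether controls received it, so effects of the drug and of the knockout cannot be told apart. The strain field reads CreERT2-;LSD1TM1Schuele for every RNA sample, knockouts included. Whether replicates came from separate cultures is not in the labels, and the p-values then measure only the spread between these samples, which may be technical. The library names in the labels end in one tag for H9M and in another for MN1 libraries; the labels do not say what the tag stands for, and it cannot be told apart from the model. A second assay, ChIP-seq of the histone mark H3K4me2, was made from lineage-negative bone marrow cells of C57BL/6 mice in 1 library labelled GFI1-WT and 1 labelled GFI-KD. The labels do not describe how GFI-KD arose.

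Library totals lay between 22402558 and 32674685 counts. Kdm1a, the gene of LSD1, checked the knockout labels: the controls held 138 to 203 CPM (the count scaled to the library total) and the knockout libraries 0.937 to 11.5 CPM. H9M knockouts with ATRA kept 7.51% of the Kdm1a level of their controls, more than the 0.693% of H9M knockouts without ATRA. Myeloid progenitor markers were present as labelled: the summed CPM of 10 myeloid progenitor markers lay between 4083 and 17270 in every library. CPM is not scaled to transcript length, so levels are compared within a gene and not between genes. Only sums over a list, and a gene's part in them, join genes. They are shares of reads, in which longer transcripts weigh more.

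Of the 6 tested genes, Cd33, Siglecf, Siglecg and Cmah were called higher in H9M knockouts without ATRA, at an adjusted p under 0.05 (edgeR's quasi-likelihood test, Benjamini-Hochberg adjustment over all tested genes). Siglece and Cd22 were called higher too, but are set apart for the reason given below. Over all tested genes, 51.5% were called in that comparison, and 26.1% of all tested genes were called higher. In MN1 cells, 5 of the 6 were called higher by knockout and Siglecg was not, where 55% of all genes were called and 28.7% were called higher. The filter asked for at least 0.383 CPM in 3 libraries. Of the 12 control libraries 2 reached that for Siglece and 0 for Cd22, so both genes passed only through the H9M knockouts, where they are high. A call of higher there was thus largely fixed by the filter, and their levels there are described with no p. All 6 genes were proposed with earlier results of these data known, so the counts describe the genes and support nothing further. With ATRA, Cd33, Siglecf, Siglecg and Cmah were again called higher in H9M knockouts (51.1% of all genes called, 26.7% higher), and Siglece and Cd22 with the same limit. In MN1 knockouts with ATRA, Cd33, Siglecf and Cmah were called higher (57.2% called, 28.6% higher). None of the 6 was called lower in these 4 comparisons.

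**Figure D1:**
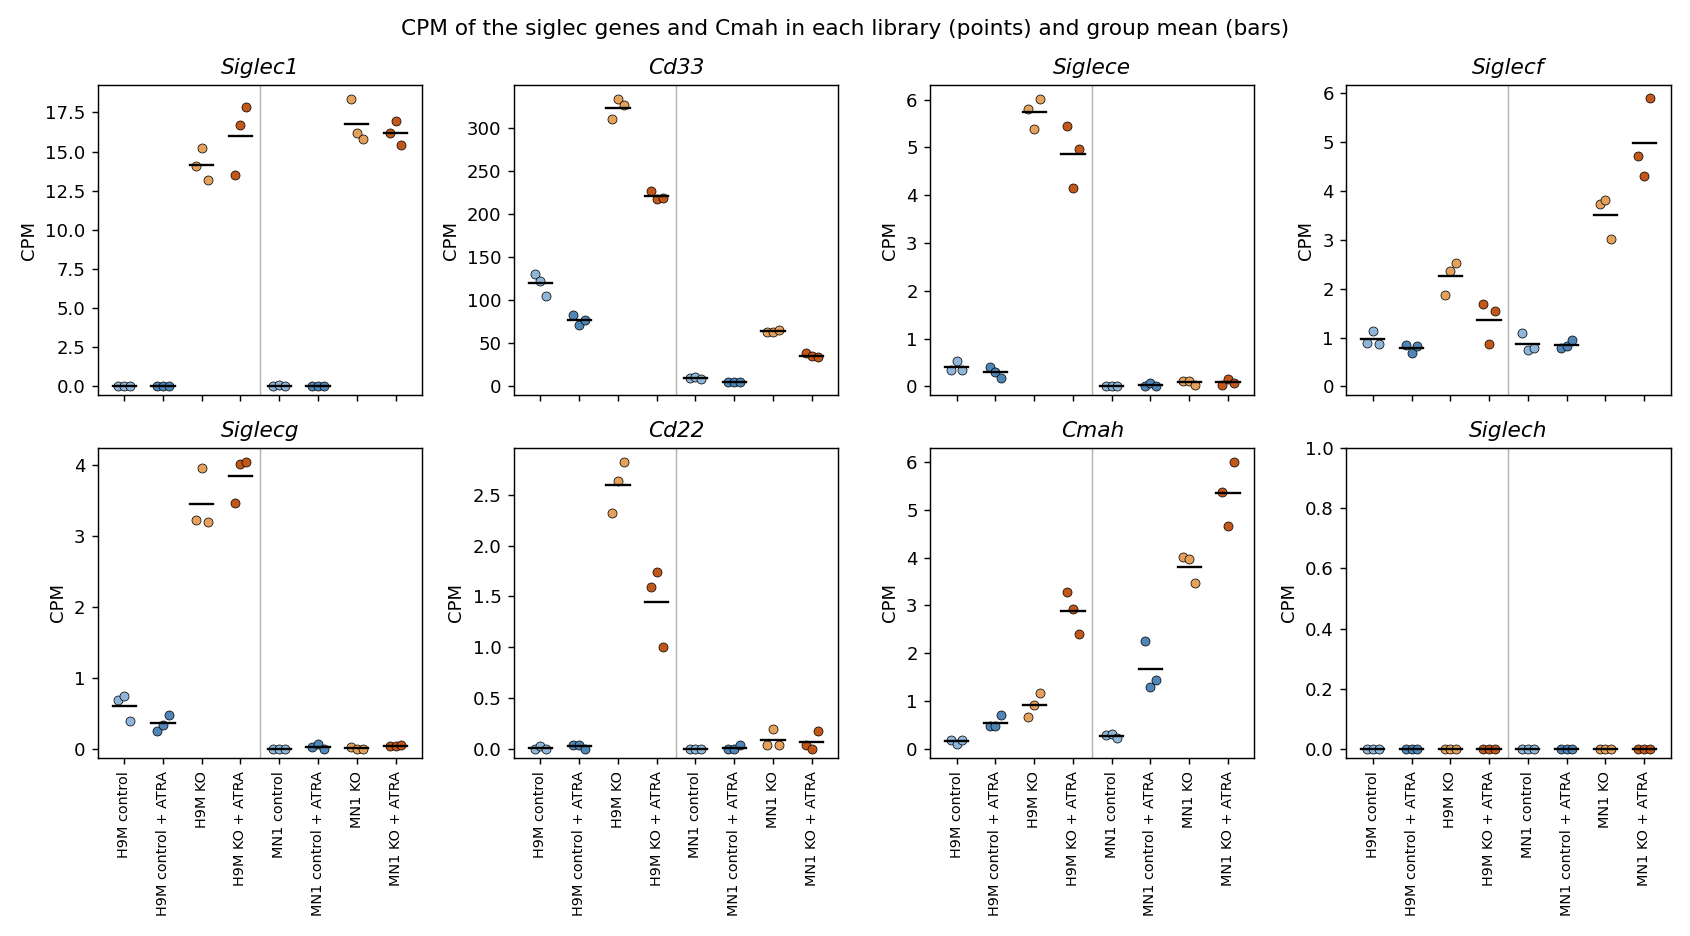
CPM (vertical axis, linear, a separate scale per gene) of the 7 siglec genes and Cmah in the 24 libraries; each point is a library, each bar the mean of the 3 libraries of a group, and a grey line parts H9M from MN1. Siglec1 lay at or near 0 in all 12 control libraries and between 13.2 and 18.3 CPM in all 12 knockout libraries, while Siglech had no count anywhere.

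Siglec1, the macrophage adhesion receptor (ENSMUSG00000027322.11, GRCm38 chr2:131067801-131086778), was close to silent in every control library. The H9M controls held 1, 1 and 0 counts, the MN1 controls held 0, 2 and 0 counts, and neither model had a count in the controls with ATRA. In the H9M knockouts the 3 libraries held 14.1, 15.2 and 13.2 CPM, and those with ATRA 13.5, 16.7 and 17.8 CPM. In the MN1 knockouts they held 18.3, 16.2 and 15.8 CPM, and with ATRA 16.2, 16.9 and 15.4 CPM. Every knockout library thus stood above every control library, and the 4 knockout groups, in the order MN1, MN1 with ATRA, H9M with ATRA and H9M, overlapped with the next at each step. Against the few control counts the ratio was 574 in H9M cells (95% counting interval 155 to 4652) and 779 in MN1 cells (204 to 6107). With ATRA the level was at least 390-fold higher in H9M and at least 465-fold higher in MN1 knockouts, taken against a floor of 3 counts over the control group. Both the interval and the floor reflect counting error alone, since PCR copies of a molecule were not marked. The knockout libraries with and without ATRA overlapped, at ratios of their means of 1.13 in H9M and 0.965 in MN1 cells.

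Those other macrophage markers that passed the filter were higher in knockouts as well, though in another order. Of 13 macrophage markers, 5 passed the filter, and all 5 (Csf1r, Adgre1, Cd68, Fcgr1 and Cd163) were called higher by knockout in both models. Fcgr1 held a mean under the filter's 0.383 CPM in every group but the H9M knockouts without and with ATRA. Its call of higher in H9M cells was thus largely fixed by the filter. The summed CPM of the 13 lay between 28.5 and 32.5 in H9M controls and between 194 and 210 in H9M knockouts. In MN1 cells the sum lay between 88 and 98.1 in controls and between 377 and 392 in knockouts. Adgre1 alone held a mean of 328 CPM in MN1 knockouts. Csf1r rose there only from 0.139 to 0.441 CPM and Fcgr1 from 0.101 to 0.31 CPM, while Csf1r rose from 1.21 to 46.3 CPM in H9M cells. Timd4 and Marco, markers of tissue macrophages, had no count in any group. Mrc1, Mertk, C1qc, C1qb, Vsig4 and C1qa held only 95, 19, 15, 10, 3 and 2 counts over all 24 libraries. In bulk RNA, fewer cells of a type and less RNA per cell cannot be told apart, and the part of these cells in the Siglec1 result was not tested. Siglec1 is also known as an interferon-induced gene. Of 19 interferon response genes, 16 were tested, and 11 were called higher and 1 lower (Rsad2) by knockout in each model. Among all tested genes 26.1% were called higher in H9M and 28.7% in MN1 cells. The part of interferon in the Siglec1 result was not tested. Irf7, an interferon-induced transcription factor, rose from 4.28 ± 0.57 to 10.2 ± 1.22 CPM in H9M cells (mean ± SD, n = 3), by 1.27 ± 0.11 on the log2 scale (± SE; edgeR adjusted p = 1.71e-11). Rsad2, the antiviral enzyme viperin, fell by 1.28 ± 0.23 (adjusted p = 1.84e-05).

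Cd33, a siglec of myeloid cells (ENSMUSG00000004609.11, chr7:43527399-43537424), was present in every library and moved with model, knockout and ATRA alike. Its upstream sequence is shown beside that of Siglecf, an inhibitory siglec of the same chromosome 7 stretch, because both hold the same 16 bases. The 250 bases before each RefSeq gene start (GRCm38.p6) are printed 5′ to 3′ on the gene's strand, Cd33 from the minus strand at chr7:43533172-43533421 and Siglecf from the plus strand at chr7:43351091-43351340, with capitals for the shared run. The Cd33 start used (chr7:43533171) lies inside the gene's span, whose higher end is 43537424, so the bases shown do not precede the whole span.
Cd33: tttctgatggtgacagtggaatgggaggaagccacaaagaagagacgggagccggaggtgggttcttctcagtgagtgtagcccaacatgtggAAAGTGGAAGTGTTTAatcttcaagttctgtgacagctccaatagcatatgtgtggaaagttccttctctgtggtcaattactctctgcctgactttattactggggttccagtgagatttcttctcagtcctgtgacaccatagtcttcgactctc
Siglecf: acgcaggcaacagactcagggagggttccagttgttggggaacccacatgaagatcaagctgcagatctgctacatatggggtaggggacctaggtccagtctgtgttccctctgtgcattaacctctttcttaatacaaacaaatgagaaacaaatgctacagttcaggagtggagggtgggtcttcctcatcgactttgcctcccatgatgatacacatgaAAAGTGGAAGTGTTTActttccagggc

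The shared run AAAGTGGAAGTGTTTA begins at position -157 in Cd33 and at position -27 in Siglecf, counted back from the gene start. Among 21 pairs of promoter windows of 7 members with an entry in the table, this pair had the highest local alignment score. The alignment spanned 134 columns with 94 identical bases (70.1%), from position -203 to -81 in Cd33 and from -82 to 49 in Siglecf. The run contains GGAAGTG, a core bound by ETS factors such as PU.1, which 11% of 32851 windows of 300 bases hold on either strand. The core GAGGAA, also an ETS core, occurs in both windows and in 28.3% of all windows. TGTGGT, the RUNX core, also occurs in both and in 16.8% of all windows. These motifs can overlap and were picked after the sequences had been seen, so a match describes the letters and is not a binding site.

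H9M controls held 131, 123 and 105 CPM of Cd33, and MN1 controls held 9.51, 10.5 and 9.1 CPM. H9M knockouts held 310, 333 and 327 CPM, and MN1 knockouts held 63.6, 63 and 65.4 CPM. The groups did not overlap in either model. Knockout raised Cd33 by 1.45 ± 0.06 on the log2 scale in H9M cells (2.7-fold; edgeR adjusted p = 7.75e-20) and by 2.72 ± 0.08 in MN1 cells (6.6-fold; adjusted p = 3.87e-23). The knockout effect was larger in MN1 than in H9M cells by 1.27 ± 0.09 (adjusted p = 5.13e-12; interaction of model and knockout), a comparison in which 28.4% of all genes were called. MN1 controls started 12.3-fold lower than H9M controls (edgeR adjusted p = 6.28e-28), and MN1 knockouts stayed 5.06-fold below H9M knockouts. ATRA lowered the gene: H9M controls with ATRA held 83.4, 71.5 and 77.3 CPM and H9M knockouts with ATRA 227, 217 and 218 CPM. MN1 controls with ATRA held 4.78, 5.44 and 5.52 CPM and MN1 knockouts with ATRA 38.5, 35.3 and 33.9 CPM. All 8 groups were therefore separate in level, in the order H9M knockout, H9M knockout with ATRA, H9M control, H9M control with ATRA, MN1 knockout, MN1 knockout with ATRA, MN1 control and MN1 control with ATRA.

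Siglecf (ENSMUSG00000039013.16, chr7:43351341-43359475), an inhibitory receptor known from eosinophils and alveolar macrophages, was low in all groups. H9M controls held 0.887, 1.14 and 0.863 CPM and MN1 controls 1.09, 0.743 and 0.786 CPM, and these ranges overlapped. H9M knockouts held 1.87, 2.35 and 2.53 CPM and MN1 knockouts 3.74, 3.81 and 3.01 CPM, each above all controls. Knockout raised Siglecf by 1.24 ± 0.22 on the log2 scale in H9M cells (2.34-fold; edgeR adjusted p = 2.27e-05) and by 2.01 ± 0.21 in MN1 cells (4.02-fold; adjusted p = 1.09e-09). With ATRA the rise was 0.78 ± 0.26 in H9M cells (edgeR adjusted p = 0.0133), a call lost without knockout with ATRA replicate 1 (adjusted p = 0.074) or replicate 3 (adjusted p = 0.0696), and 2.53 ± 0.19 in MN1 cells (adjusted p = 2.04e-12). The difference between the models, 0.77 (95% interval 0.12 to 1.42), did not pass the test over all genes (adjusted p = 0.069). The groups ran in the order MN1 knockout with ATRA, MN1 knockout, H9M knockout and H9M knockout with ATRA, each apart from the next, and H9M knockout with ATRA overlapped with both groups of MN1 controls and with the H9M controls without ATRA, but not with the H9M controls with ATRA. The difference between the models passed when MN1 control replicate 1 (adjusted p = 0.0364) or MN1 knockout replicate 3 (adjusted p = 0.0449) was left out.

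Eosinophil markers were near 0. The summed CPM of 9 of them was at most 0.852 in the controls of either model without ATRA, and lay between 2.71 and 3.55 in H9M and between 3.12 and 3.47 in MN1 knockouts. Ear1 and Ear6, eosinophil ribonucleases, had no count in any group. Alox15, a lipoxygenase of eosinophils and macrophages, accounted for much of the sum, at 1.75 ± 0.08 CPM in H9M and 1.17 ± 0.05 CPM in MN1 knockouts (SD, n = 3). The part of such cells in the Siglecf result was not tested.

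Siglece and Siglecg, inhibitory siglecs known from neutrophils and macrophages (Siglece) and from B cells and other leukocytes (Siglecg), lie on either side of Cd33 on chromosome 7. Their upstream sequences are shown because both carry more than 1 copy of the ETS core and both gene starts held more H3K4me2 reads in GFI-KD, as given with that assay. Siglece is read from the minus strand at chr7:43660162-43660411 and Siglecg from the plus strand at chr7:43407989-43408238 (RefSeq, GRCm38.p6), with GAGGAA on either strand, here TTCCTC, in capitals. The Siglece start used (chr7:43660161) also lies inside the gene's span, whose higher end is 43672044.
Siglece: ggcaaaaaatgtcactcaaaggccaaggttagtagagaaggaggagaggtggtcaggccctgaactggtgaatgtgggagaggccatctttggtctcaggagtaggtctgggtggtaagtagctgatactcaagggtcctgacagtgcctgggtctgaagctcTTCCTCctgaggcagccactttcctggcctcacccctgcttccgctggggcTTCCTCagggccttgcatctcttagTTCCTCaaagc
Siglecg: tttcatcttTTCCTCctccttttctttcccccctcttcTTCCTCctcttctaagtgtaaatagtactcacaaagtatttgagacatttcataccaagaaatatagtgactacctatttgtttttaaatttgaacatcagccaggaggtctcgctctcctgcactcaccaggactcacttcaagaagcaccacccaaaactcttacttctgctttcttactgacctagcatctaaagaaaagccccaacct

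Siglece carried 3 copies, and 3 or more copies were found in 0.685% of all windows. Siglecg carried 2 in the window shown and none in a second RefSeq window that begins further downstream.

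Siglece (ENSMUSG00000030474.9, chr7:43648882-43672044) held 0.347, 0.532 and 0.353 CPM in H9M controls and 5.8, 5.39 and 6.01 CPM in H9M knockouts. The groups were far apart, with a difference of 3.79 ± 0.23 on the log2 scale (14-fold). With ATRA, H9M controls held 0.404, 0.303 and 0.176 CPM and knockouts 5.46, 4.16 and 4.97 CPM, a difference of 3.99 ± 0.26 (16.5-fold). ATRA itself gave no call on Siglece in H9M cells, at -0.42 (95% interval -1.25 to 0.42; edgeR adjusted p = 0.512) in controls and -0.22 (-0.53 to 0.1; adjusted p = 0.323) in knockouts, and the libraries overlapped. In MN1 cells Siglece stayed close to 0: controls had no count and knockouts 3, 3 and 1 counts. That small rise was called (edgeR adjusted p = 0.00745) and amounts to at least 2.67-fold against the floor of 3 counts over the group. With ATRA the MN1 controls had 0, 2 and 0 counts and the knockouts 1, 4 and 2, an overlap with no call (edgeR adjusted p = 0.148). The gene's span overlaps that of Ceacam18 at one end, and Ceacam18 had 25 counts over all 24 libraries.

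Siglecg (ENSMUSG00000030468.12, chr7:43408192-43418349) behaved alike in H9M cells, with 0.694, 0.745 and 0.392 CPM in controls and 3.21, 3.95 and 3.19 CPM in knockouts. The rise was 2.49 ± 0.23 on the log2 scale (5.65-fold; edgeR adjusted p = 2.45e-10). With ATRA the H9M controls held 0.257, 0.347 and 0.484 CPM and the knockouts 3.46, 4 and 4.03 CPM, a rise of 3.41 ± 0.25 (10.6-fold; adjusted p = 3.74e-12). The ATRA difference of Siglecg was -0.74 (95% interval -1.46 to -0.02; edgeR adjusted p = 0.131) in H9M controls and 0.18 (-0.17 to 0.53; adjusted p = 0.478) in H9M knockouts. In MN1 cells Siglecg had no count in controls, 1, 2 and 0 counts in controls with ATRA, 1, 0 and 0 in knockouts and 1, 1 and 2 in knockouts with ATRA, so no fold is given for knockout without ATRA. Markers of neutrophils were higher in knockouts too: of 11 markers 9 were tested, and 8 were called higher in each model without ATRA. Among all tested genes 26.1% were called higher there in H9M and 28.7% in MN1 cells. Their summed CPM lay between 78.2 and 83.3 in H9M controls and between 1647 and 1935 in H9M knockouts, and between 56.4 and 62.9 in MN1 controls and between 510 and 548 in MN1 knockouts. Mmp8 accounted for much of the list, with 213396 counts over all 24 libraries, followed by Csf3r with 42333. Ltf, Ngp, Camp and Retnlg held only 103, 96, 28 and 5 counts, and Ngp was tested but not called. Ltf and Retnlg had no count in H9M controls, Retnlg had none in H9M knockouts, and every marker had counts in both MN1 groups. The part of such cells in the Siglece and Cd33 results was not tested.

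Both Siglece and Siglecg were lower in MN1 than in H9M controls, Siglece at least 12.1-fold and Siglecg at least 17.9-fold. With Cd33 these were the 3 of 6 genes called lower in MN1 controls, where 73.5% of all genes were called and 35.9% were called lower.

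Cd22 (ENSMUSG00000030577.13, chr7:30865404-30880342), an inhibitory co-receptor of B cells, went from almost none to a low level in H9M knockouts. H9M controls held 0, 1 and 0 counts without ATRA and 1, 1 and 0 with it. H9M knockouts held 2.32, 2.63 and 2.82 CPM, and those with ATRA 1.6, 1.74 and 1.01 CPM. The ratio to controls was 219 (95% counting interval 36.8 to 8241) without ATRA and 54.3 (14.1 to 437) with it. In MN1 cells the knockouts held 1, 5 and 1 counts and the controls none, and the call (edgeR adjusted p = 0.0198) was lost without MN1 knockout replicate 2 (adjusted p = 0.145). With ATRA the MN1 controls held 0, 0 and 1 counts and the MN1 knockouts 1, 0 and 6, a ratio of 5.85 with a counting interval of 0.93 to 326 (edgeR adjusted p = 0.103).

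Of 10 B cell markers, 5 were tested. Without ATRA none of these was called higher by knockout, and Ebf1 and Ighm were called lower in both models. With ATRA knockout called Ighm higher and Ebf1 lower in H9M cells, and Cd79b higher and both Ighm and Ebf1 lower in MN1 cells. Ms4a1 had no count in any group. The summed CPM of the 10 lay between 139 and 148 in H9M controls and between 88.8 and 91 in H9M knockouts, and with ATRA between 164 and 167 in controls and between 154 and 158 in knockouts.

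Siglech (ENSMUSG00000051504.18, chr7:55768154-55779448), the DAP12-coupled siglec of plasmacytoid dendritic cells, had 0 counts in all 24 libraries. Of 10 markers of those cells 6 were tested. Without ATRA knockout called Irf8, Tcf4, Bst2 and Runx2 higher and Cox6a2 lower in H9M cells, and Irf8, Bst2, Tcf4 and Pacsin1 higher and Cox6a2 lower in MN1 cells. The summed CPM of the 10 lay between 134 and 139 in H9M controls and between 591 and 598 in H9M knockouts, and between 252 and 267 in MN1 controls and between 324 and 327 in MN1 knockouts. Ly6d and Klk1, which are on the list, had no count in any of the 4 H9M groups. Irf8, a transcription factor of dendritic cells and monocytes, rose from 8.06 ± 0.62 to 395 ± 5.46 CPM in H9M knockouts (SD, n = 3), by 5.63 ± 0.06 on the log2 scale (edgeR adjusted p = 9.47e-35). Among the other mouse siglecs, Mag, the siglec of myelin, held 11.6 to 14.2 CPM in H9M cells without ATRA in controls and knockouts alike. Its knockout difference in H9M cells was 0.03 on the log2 scale (95% interval -0.15 to 0.21; edgeR adjusted p = 0.813). Siglec15 had 5 counts over all libraries.

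**Figure D2:**
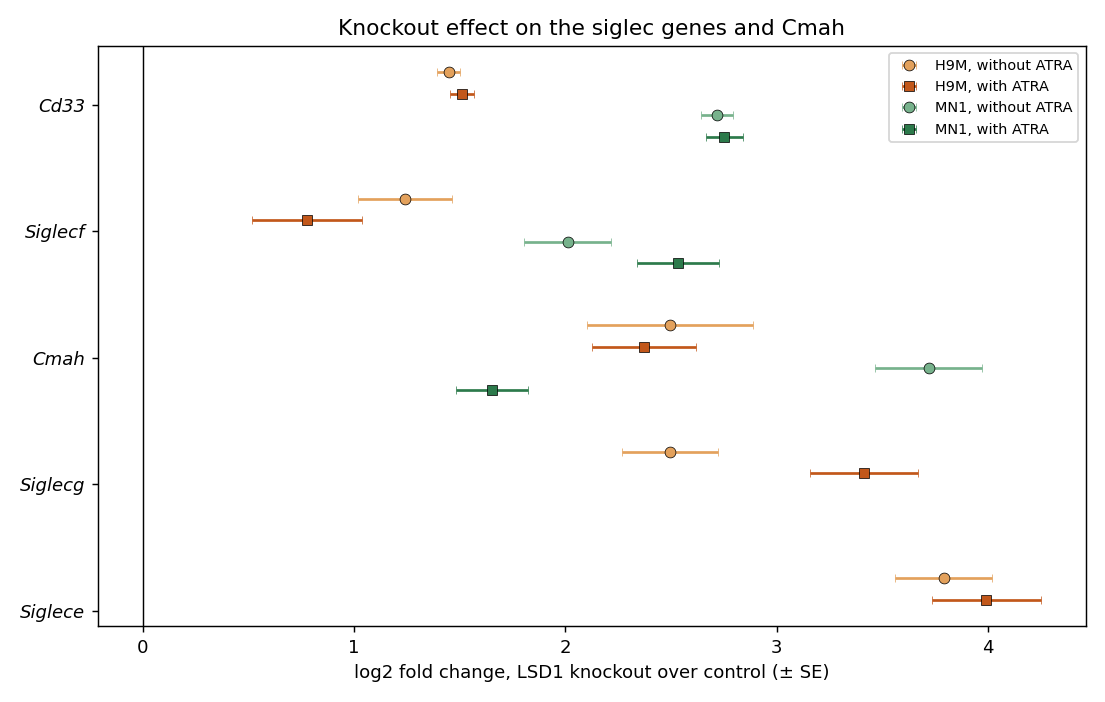
Log2 fold change of knockout over control (horizontal axis, ± SE from the edgeR fit) for 5 genes in each model, without (circles) and with ATRA (squares); Cd22, and Siglecg and Siglece in MN1 cells, are left out because a group had too few counts. All points lie to the right of 0, and Cd33 sits near 1.45 to 1.51 in H9M and 2.72 to 2.75 in MN1 cells, with little change by ATRA.

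Cmah (ENSMUSG00000016756.16, chr13:24327404-24477289), the hydroxylase that turns N-acetylneuraminic acid into N-glycolylneuraminic acid, a sialic acid that mouse CD22 prefers, rose with knockout and with ATRA. H9M controls held 0.193, 0.106 and 0.196 CPM, H9M controls with ATRA 0.477, 0.477 and 0.705 CPM, and H9M knockouts 0.67, 0.918 and 1.17 CPM. H9M knockouts with ATRA held 3.28, 2.93 and 2.41 CPM, above all other H9M libraries. H9M knockouts without ATRA and H9M controls with ATRA overlapped. Knockout raised Cmah by 2.5 ± 0.39 on the log2 scale without ATRA (edgeR adjusted p = 3.44e-06) and by 2.37 ± 0.25 with it (adjusted p = 1.74e-09). The interaction was -0.12 (95% interval -1.05 to 0.8; edgeR adjusted p = 0.97).

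MN1 controls held 0.302, 0.323 and 0.229 CPM of Cmah and MN1 controls with ATRA 2.26, 1.3 and 1.45 CPM. MN1 knockouts held 4, 3.97 and 3.47 CPM and MN1 knockouts with ATRA 5.38, 4.66 and 6 CPM. The 4 groups were separate, but the second step was small. Knockout raised Cmah 13.4-fold without ATRA (3.72 ± 0.25; edgeR adjusted p = 1.64e-13) and 3.2-fold with it (1.65 ± 0.17; adjusted p = 1.18e-09). The interaction of knockout and ATRA was -2.07 ± 0.34 (edgeR adjusted p = 2.83e-04), the only one of the 6 genes called for it in MN1 cells, where 2.78% of all genes were called and 1.68% were called lower. In H9M cells none of the 6 was called for the interaction, by edgeR or by DESeq2, and 1 (Siglecg) had an unadjusted p under 0.05, where 5.04% of all genes were called.

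ATRA moved Cd33 and Cmah in opposite directions in all 4 settings tested, and of the other 4 genes Siglecf and Cd22 passed in knockout cells and Siglece and Siglecg in no setting. In H9M controls Cd33 fell by 0.59 ± 0.06 on the log2 scale (edgeR adjusted p = 2.19e-09) and Cmah rose by 1.76 ± 0.45 (adjusted p = 0.0037). In MN1 controls Cd33 fell by 0.91 ± 0.11 (edgeR adjusted p = 1.17e-07) and Cmah rose by 2.52 ± 0.29 (adjusted p = 9.64e-08). Over all genes ATRA called 25.2% in H9M and 21.8% in MN1 controls. The Cd33 response to knockout was close to the same on either side of ATRA, with an interaction of 0.06 (95% interval -0.1 to 0.22) in H9M and 0.04 (-0.22 to 0.29) in MN1 cells.

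In knockout cells ATRA lowered Siglecf in H9M and raised it in MN1. H9M knockouts fell to 1.69, 0.872 and 1.55 CPM, by 0.71 ± 0.21 on the log2 scale (edgeR adjusted p = 0.0107), and MN1 knockouts reached 4.71, 4.3 and 5.91 CPM, a rise of 0.47 ± 0.15 (adjusted p = 0.0302). In neither model did the libraries with and without ATRA overlap. The difference between the models in the ATRA effect was 1.18 ± 0.26 (edgeR adjusted p = 0.00183), in a comparison where 13.5% of all genes were called. This comparison, and the same one in controls, was added after the data had been seen. It was also called for Cd33, which ATRA lowered more in MN1 knockouts (difference -0.35 ± 0.08; edgeR adjusted p = 0.00357), and for Cmah, which ATRA raised less there (difference -1.18 ± 0.27; adjusted p = 0.00265).

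Each single-model ATRA call on Siglecf depended on single libraries. The H9M call was lost without knockout replicate 3 (edgeR adjusted p = 0.0588) or without knockout with ATRA replicate 2 (adjusted p = 0.108). The MN1 call was lost without knockout replicate 3 (adjusted p = 0.163), without knockout with ATRA replicate 3 (adjusted p = 0.224) and with DESeq2 (adjusted p = 0.0595). In H9M knockouts ATRA called 4 of the 6 genes, Cmah higher and Cd33, Siglecf and Cd22 lower (29.4% of all genes called). Cd22 fell by 0.83 ± 0.26 (edgeR adjusted p = 0.0174), and its call was lost without H9M knockout with ATRA replicate 3 (adjusted p = 0.127), without H9M knockout replicate 3 (adjusted p = 0.0636) and with DESeq2 (adjusted p = 0.0535). In MN1 knockouts it called 3 of the 6, Siglecf and Cmah higher and Cd33 lower (18.8% of all genes called). The Cmah call there (0.45 ± 0.15; edgeR adjusted p = 0.034) was lost with DESeq2 (adjusted p = 0.074) and on leaving out any of 5 of the 6 knockout libraries (adjusted p = 0.054 to 0.173), the exception being knockout with ATRA replicate 2. In controls the difference between models called none of the 6 by edgeR (2, Cd33 and Siglecg, at an unadjusted p under 0.05) and 1, Cd33, by DESeq2 (13.8% of all genes called by edgeR).

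**Figure D3:**
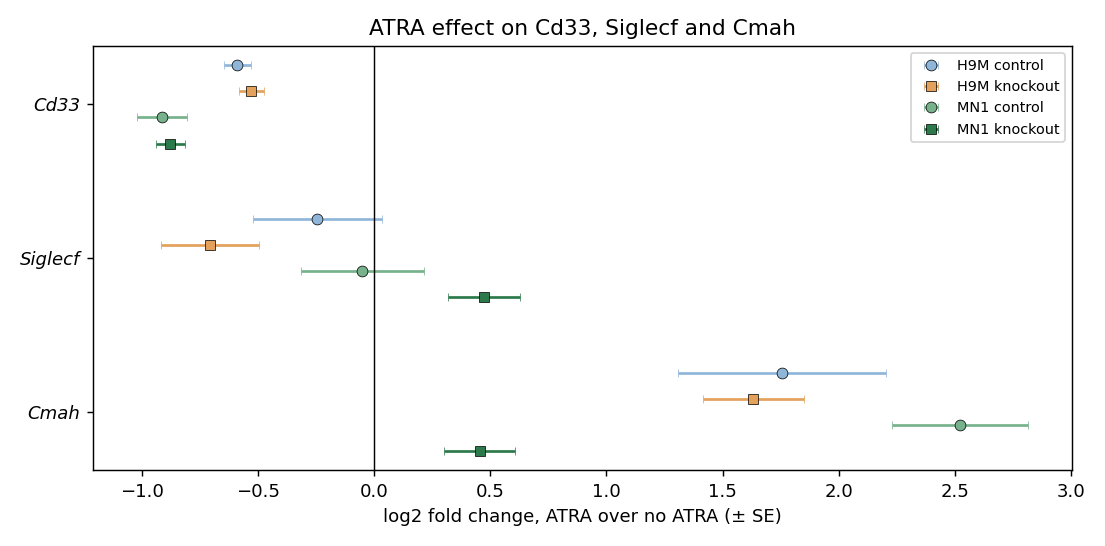
Log2 fold change of ATRA over no ATRA (horizontal axis, ± SE from the edgeR fit) for Cd33, Siglecf and Cmah in controls (circles) and knockouts (squares) of each model. Cd33 lies left of 0 and Cmah right of 0 in all 4 settings, while Siglecf in knockouts lies at -0.71 in H9M and 0.47 in MN1 cells.

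The genes that make sialic acid and attach it were described from a list of 20 sialyltransferases, of which 11 were tested. Knockout called 5 higher and 2 lower in H9M cells, and 7 higher and 2 lower in MN1 cells. Beside this and each list below, 51.5% of all tested genes were called in H9M and 55% in MN1 cells. The list's median log2 fold change was 0.47 in H9M and 0.14 in MN1 cells, beside 0 and 0.01 over all tested genes. St6gal1, the enzyme that makes the sialic acid linkage bound by CD22, rose in H9M cells from 4.58 ± 0.66 to 29.9 ± 1.96 CPM (SD, n = 3; 2.72 ± 0.08 on the log2 scale; edgeR adjusted p = 4.76e-22). In MN1 cells St6gal1 rose from 9.66 ± 0.70 to 49.5 ± 3.1 CPM (2.35 ± 0.07; adjusted p = 1.26e-22). ATRA raised St6gal1 10.5-fold in H9M controls and lowered it 2.03-fold in MN1 controls, a difference of -4.47 ± 0.13 between the models (edgeR adjusted p = 4.56e-21). St8sia4, a polysialic acid synthase, rose 2.48-fold in H9M and 2.03-fold in MN1 knockouts. St3gal1, which caps O-glycans, fell by 0.31 ± 0.04 in H9M and by 0.23 ± 0.03 in MN1 cells (edgeR adjusted p = 3e-08 and 1.14e-06).

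Of 6 genes of sialic acid supply, 5 were tested. Npl, the lyase that breaks down free sialic acid, was called higher by knockout in both models, by 0.73 ± 0.07 in H9M (edgeR adjusted p = 1.11e-10) and 0.57 ± 0.08 in MN1 cells (adjusted p = 9.36e-07). Gne, the first enzyme of synthesis, fell in H9M cells from 77.2 ± 3.87 to 56.1 ± 2.34 CPM (adjusted p = 1.35e-09) and was 63.7 ± 1.7 and 68.6 ± 2.68 CPM in MN1 controls and knockouts (adjusted p = 0.0577). Of 6 sialidases and O-acetylation genes, 4 were tested, and 2 were called higher in H9M and 4 in MN1 knockouts, none lower. Neu3, the plasma membrane sialidase, rose by 0.82 ± 0.12 in H9M and 0.66 ± 0.13 in MN1 cells (edgeR adjusted p = 5.88e-07 and 5.03e-05).

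**Figure D4:**
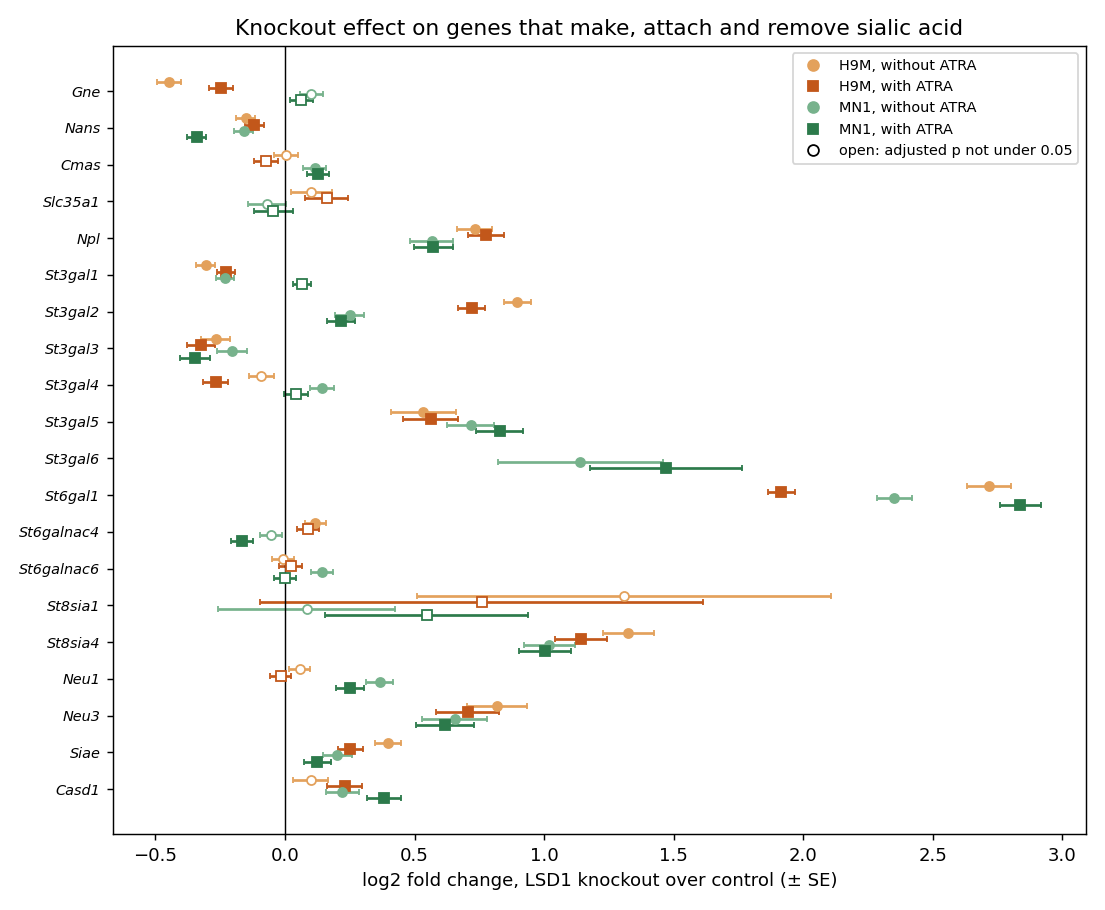
Log2 fold change of knockout over control (horizontal axis, ± SE from the edgeR fit) for the tested genes that make, attach, modify or remove sialic acid, without (circles) and with ATRA (squares); open symbols did not pass an adjusted p of 0.05, and values with 3 or fewer counts in a group are left out. St6gal1, St8sia4, St3gal5, Npl and Neu3 lie right of 0 in all 4 settings and St3gal3 left of 0.

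The signalling partners of siglecs were all 8 tested. Knockout called 5 higher and 2 lower in H9M cells and 6 higher and 2 lower in MN1 cells, where 51.5% and 55% of all tested genes were called. Tyrobp, the DAP12 adaptor, rose from 84.2 ± 3.29 to 185 ± 1.87 CPM in H9M (SD, n = 3; edgeR adjusted p = 1.19e-18) and from 1.68 ± 0.40 to 6.24 ± 0.60 CPM in MN1 cells (adjusted p = 2.51e-13). Ptpn6, the phosphatase SHP-1, rose by 0.32 ± 0.03 in both models (edgeR adjusted p = 1.09e-09 in H9M and 2.54e-09 in MN1). Ptpn11, the related phosphatase SHP-2, fell by 0.41 ± 0.03 in H9M and by 0.40 ± 0.03 in MN1 cells (adjusted p = 1.28e-12 and 1.56e-12). Among 6 glycoproteins known to carry siglec ligands, knockout called 4 higher and 2 lower in H9M and all 6 higher in MN1 cells. Cd52 rose 3.35-fold in H9M and 5.19-fold in MN1 knockouts, while Spn (CD43) fell by 0.15 ± 0.03 in H9M and rose by 0.16 ± 0.03 in MN1 cells (edgeR adjusted p = 1.5e-04 and 4.33e-05).

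The patterns over the 24 libraries set the members apart from one another. By Pearson correlation of log2(CPM + 0.5), Siglece and Siglecg ran most closely together (r = 0.98), and Cd22 followed Siglece (r = 0.95), whereas Siglecf and Siglecg did not run together (r = -0.06). These values describe libraries that share groups and carry no p. Among 11030 other genes with a mean of at least 1 CPM, Siglec1 was most like Slc15a3, a lysosomal peptide transporter (r = 0.996), Cd33 most like Slpi, a protease inhibitor (r = 0.99), and Siglece most like Csf1r, the receptor of macrophage colony-stimulating factor (r = 0.994). Siglecg was most like Mpeg1 (perforin-2, r = 0.988), Siglecf most like Akr1e1 (r = 0.953) and Cmah most like Skil (r = 0.943). Cd22 was most like C1galt1c1, the chaperone of the enzyme that builds core O-glycans (r = 0.986), which itself held 25.2 CPM in H9M controls and 100.9 CPM in H9M knockouts.

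Siglecf, Siglecg, Cd33 and Siglece lie within 321 kb of chromosome 7 (chr7:43351341-43672044). Of 13 other protein-coding genes in that stretch, 5 were tested, and knockout called 4 higher and 1 lower in H9M cells and 3 higher in MN1 cells. Over all tested genes 51.5% were called in H9M (26.1% higher) and 55% in MN1 cells (28.7% higher), so counts from 5 genes describe only these neighbours. Zfp658, a zinc finger gene between Cd33 and Siglece, rose by 3.2 on the log2 scale in H9M and 2.64 in MN1 knockouts (edgeR adjusted p = 2.76e-21 and 1.02e-17). Nkg7, a granule membrane gene, rose by 0.62 and 2.25 (adjusted p = 7.31e-06 and 3.45e-19), and Etfb, a mitochondrial gene, fell by 0.28 in H9M cells (adjusted p = 0.0385).

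H3K4me2, a mark of active and primed promoters, was read at the gene starts as the number of ChIP-seq reads within 1 kb either side, in lineage-negative bone marrow of 1 GFI1-WT and 1 GFI-KD library. The starts used for Cd33, Siglece and Cd22 lie inside the gene spans given above, and no other start of these genes was read. GFI1 is a transcriptional repressor that brings LSD1 to its targets. With 1 library per genotype there is no test, and the intervals cover counting error in these 2 libraries only. Kept reads numbered 8949072 in GFI1-WT and 9538627 in GFI-KD. Over 18346 gene starts with at least 20 reads the median ratio of GFI-KD to GFI1-WT was 0.988, with 5% of starts under 0.558 and 5% over 2.11.

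Siglece had 67 reads in GFI1-WT and 186 in GFI-KD, a ratio of 2.6 after scaling to the kept reads (95% counting interval 1.96 to 3.5), the 97.4th percentile of the starts with at least 20 reads. Siglecg had 70 and 163 reads, a ratio of 2.18 (1.64 to 2.93). Cd33 had 55 and 113 reads, a ratio of 1.93 (1.38 to 2.71). The table of starts holds no entry for Siglec1, so both ends of the gene were read: the end at the higher coordinate had 35 and 84 reads, a ratio of 2.25 (1.5 to 3.44), and the other end 5 and 2 reads. At these 4 genes the interval lay above 1, for Siglec1 at 1 of the 2 ends read. How many of all starts have such an interval was not counted. By ratio, Siglecg stood at the 95.4th percentile of the starts with at least 20 reads. Cd33 stood at the 93.3rd, under the 2.11 that 5% of starts exceeded, and the Siglec1 end at the 95.8th. Siglecf, next to Siglecg, had 60 and 64 reads, a ratio of 1 (0.693 to 1.45), and Cd22 had 23 and 22 reads, a ratio of 0.897 (0.477 to 1.68). Siglech had 17 and 11 reads. Cmah had 6 and 4 reads at its first start and 54 and 62 at its second, a ratio there of 1.08 (0.736 to 1.58). At Siglecf, Cd22 and the second Cmah start no difference was detectable at this depth within 1 kb. With a window of 2 kb Siglecf had 112 and 154 reads, a ratio of 1.29 whose interval lay just above 1 (1.005 to 1.66). These are other cells than the transformed lines, so the mark and the RNA values are set side by side and were not tested against each other.

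**Figure D5:**
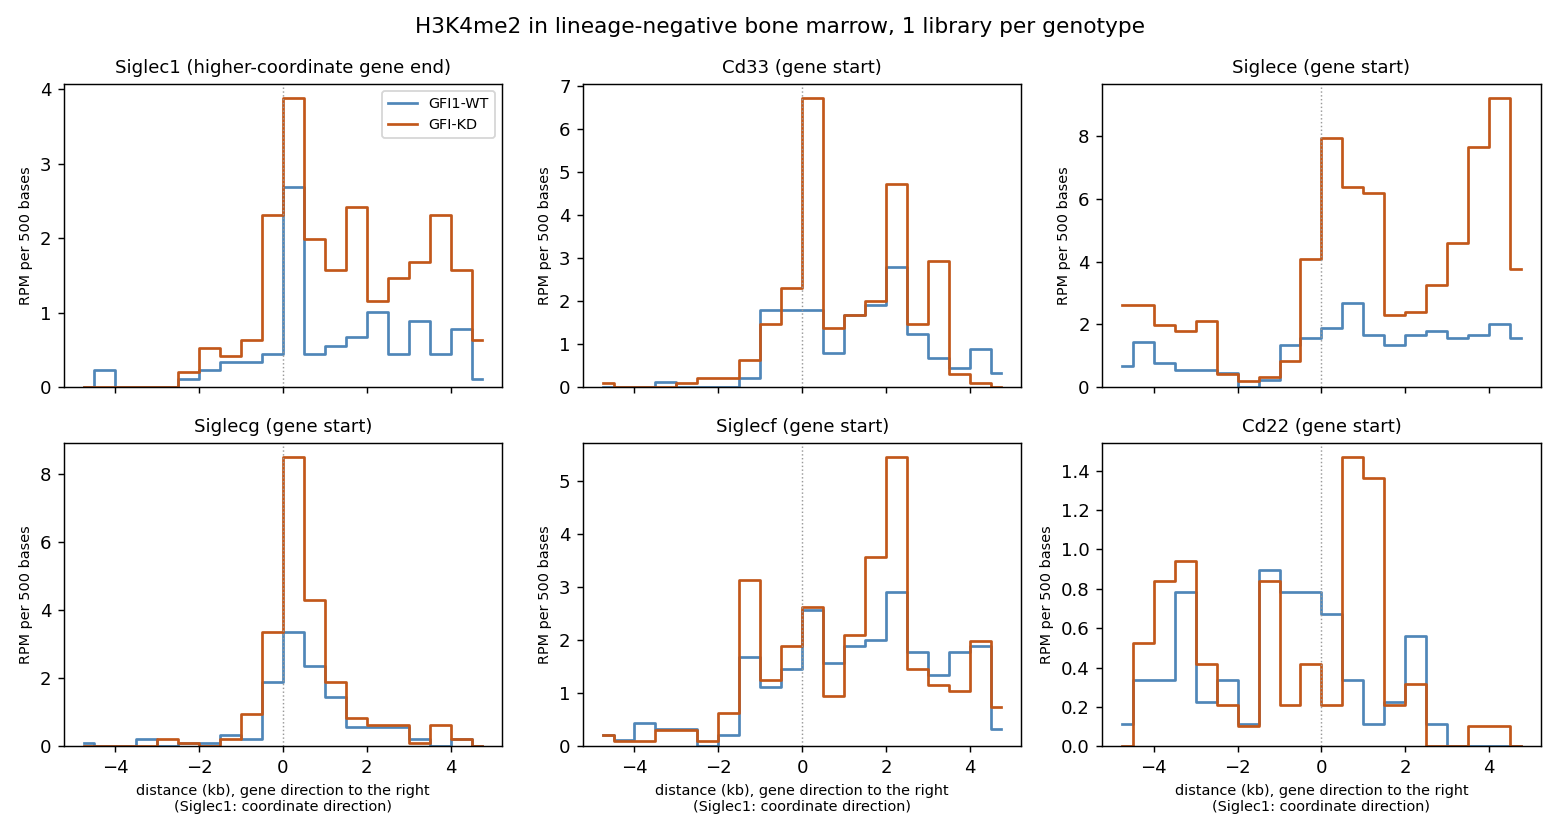
H3K4me2 reads scaled to each library's kept reads (RPM) in bins of 500 bases (vertical axis, a separate scale per gene) against the distance from the gene start in kb (horizontal axis, gene direction to the right; for Siglec1, distance from the higher-coordinate gene end in coordinate direction), in the GFI1-WT and GFI-KD libraries, 1 of each. GFI-KD stands above GFI1-WT around position 0 at Siglec1, Cd33, Siglece and Siglecg, with ratios of 1.93 to 2.6 within 1 kb, and both lines lie together near the start of Siglecf.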

How the data were processed

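RNA was sequenced from 24 libraries as stranded total RNA, read as 100-bp pairs, per the labels' protocols. The deposited table holds whole-number read counts per gene. The authors used STAR 2.5.3 with mm10, per the submitters' processing notes; for the counting tool, annotation and strand nothing is stated in the labels, and overlapping genes are uncertain. The ChIP tables list 1 aligned read per line, made with CASAVA 1.8.2, BWA and bedtools 2.27.0 on GRCm38, per the submitters' processing notes. Their deposited score column was taken as mapping quality, and reads with a score of at least 10 were counted.

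Symbols were attached by Ensembl ID through the given name table (446 IDs had none). The deposited counts were filtered (filterByExpr) and normalised (TMM) in edgeR 4.0.16 (R 4.3.3), and 1 quasi-likelihood model of 8 groups (16 residual degrees of freedom) gave 14 comparisons, 2 of them added after the data had been seen. P-values are two-sided and adjusted by Benjamini-Hochberg over 14663 genes, and a gene is called under 0.05. Simulated counts with known changes were used to test the fit. Gene starts and promoters are from RefSeq (GRCm38.p6), with entries for 7 of the 8 members.

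The members, gene lists and comparisons were chosen with earlier results of these data known. Named genes are the members, Kdm1a, at most 4 called genes per list with the smallest adjusted p, and the 3 genes most like each member, of which the text gives the first; neighbours on chromosome 7, genes named as uncalled, low or fallen list members, and St6gal1's and Spn's contrasts were chosen after their values were seen. Alternatives were DESeq2 1.42.0, RLE normalisation, no filter, a replicate block, the 4 groups of a model alone, removal of the residual control signal that Kdm1a shows in H9M knockouts with ATRA, leaving out each library, and other mapping quality, window and scaling for ChIP.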

Additional observations from a re-analysis of the deposited data

Results flagged for a closer look

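The knockout by ATRA interaction of Cmah in MN1 cells passed its test at -2.07 ± 0.34 on the log2 scale (edgeR adjusted p = 2.83e-04): knockout raised Cmah 13.4-fold without ATRA and 3.2-fold with it. The knockout effect on Cd33 was larger in MN1 than in H9M cells by 1.27 ± 0.09 (edgeR adjusted p = 5.13e-12).

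In knockouts the ATRA effect differed between MN1 and H9M cells for 3 members: Siglecf by 1.18 ± 0.26 (edgeR adjusted p = 0.00183), Cd33 by -0.35 ± 0.08 (adjusted p = 0.00357) and Cmah by -1.18 ± 0.27 (adjusted p = 0.00265). In controls St6gal1 differed by -4.47 ± 0.13 (edgeR adjusted p = 4.56e-21), rising with ATRA in H9M and falling in MN1 cells. In each of these differences the tag that ends the library names, unexplained in the labels, changes with the model, and the 2 cannot be told apart.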

How the results depend on the processing

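The 14 counts of members called and 59 single-gene fold changes were recomputed under each alternative. RLE normalisation kept all 14 counts and all 59 fold changes in direction and on their side of the threshold, as did a fit of 1 model's groups alone (10 counts, 45 fold changes) and removal of the residual control signal (3 counts, 17 fold changes). The replicate block also changed none of them. For knockout in H9M cells without ATRA it kept 6 members called, and over all genes it gave 7554 calls in place of 7557. Those 6 include Siglece and Cd22, whose calls there were largely fixed by the filter. Deviations from the group mean of same-numbered libraries correlated at -0.0749 to 0.0696 in H9M and -0.0332 to 0.0773 in MN1 cells. For differently numbered libraries the ranges were -0.0729 to 0.0961 and -0.0717 to 0.0544, so no pairing by number was seen. Correlations cannot show how the replicates were made, which the labels do not give.

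The members called for ATRA in MN1 knockouts fell from 3 to 1 with DESeq2, and those for the difference between models in the ATRA effect in controls went from 0 to 1, Cd33, with DESeq2 or no filter. DESeq2 also lost the Cd22 call for ATRA in H9M knockouts (adjusted p = 0.0535). Leaving out 1 library at a time gave 1 to 3 members for ATRA in MN1 knockouts and 2 to 4 for ATRA in H9M knockouts. It gave 1 to 2 for the difference between models in the knockout effect and 0 to 1 for that in the ATRA effect in controls. The libraries are those named in the report, and for the last H9M control replicate 1 and H9M control with ATRA replicate 2. For knockout against control, leaving out a library gave 5 to 6 members in H9M cells with ATRA, 4 to 5 in MN1 cells without ATRA and 3 to 4 with it. In H9M cells without ATRA it gave 6 each time. The H9M counts include Siglece and Cd22, whose calls there were largely fixed by the filter. The direction changed, with no call, for the interactions of Cd33 (-0.0067 to 0.14 in H9M, -0.028 to 0.084 in MN1), Cmah in H9M (-0.29 to 0.12) and Siglece in H9M (-0.046 to 0.52), and for ATRA on Siglecf in MN1 controls (-0.16 to 0.14). Apart from the fewer libraries or genes that an alternative uses, the cause was not tested.

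No ChIP ratio moved beyond its counting interval with a mapping quality of at least 30, a window of 2 kb or scaling to reads at gene starts, but the interval of Siglecf, 0.693 to 1.45 within 1 kb, was 1.005 to 1.66 with the 2 kb window and so lay above 1. Depth limits Siglece, Siglecg and Cd22 in MN1 cells, where 7 or fewer counts per group bear each value, and Cd22 and Siglech in the ChIP libraries, with under 30 reads each.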
